A study of Mus musculus with 6 samples.

Results

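The fibril-forming collagen chains are the polypeptides that assemble into the banded fibres of connective tissue. The genes described are Col1a1 and Col1a2 (type I collagen), Col3a1 (type III), Col5a1, Col5a2 and Col5a3 (type V) and Col11a1 (type XI), 7 of the 18193 genes measured. They were chosen by symbol, with the difference between the groups already known, so that difference is given below as a description without a test. The array held 16 probe sets that its annotation assigned to exactly 1 of these genes. For each gene the probe set with the highest mean log2 signal over the 6 arrays was taken as the main one, and the other 9 were set beside it.

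RNA of mouse embryonic fibroblasts, which are connective tissue cells cultured from embryos, was hybridized to 6 Affymetrix arrays. Wild-type cells had 3 of them, and the other 3 held cells labelled as an abl/arg knockout, meaning that they should lack the tyrosine kinases c-Abl and Arg, the products of Abl1 and Abl2. Both groups came from C57BL/6 embryos of both sexes, pooled, at 14 days of gestation, and were grown in the same serum-containing medium. The sources used here do not give passage, immortalization or the derivation of the knockout cells. Because no label ties the arrays of a group to different cultures, the p-values cover only array-to-array spread, possibly technical.

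Median signals of the 6 arrays lay between 13.4 and 14.7. Within a group, arrays correlated with each other at a Pearson r of at least 0.998 across genes, and between groups at no more than 0.905, where genes are not independent replicates. The knockout-labelled arrays were not clearly lower in the targeted genes. Mean signals of the main Abl1 probe set were 184.8 ± 4.46 (wild type) and 169.8 ± 8.22 (labelled knockout; SD, n = 3 each; limma adjusted p = 0.0929), and those of the Abl2 probe set 256.1 ± 9.30 and 254.1 ± 11.9 (limma adjusted p = 0.874). Both other Abl1 probe sets were dim and higher in the labelled knockout, with log2 differences of 0.21 (limma adjusted p = 0.0012) and 0.28 (limma adjusted p = 0.00586). The deleted exons are not stated, so it is unknown whether these probe sets could show the deletion, and every direction below is that of the arrays as labelled. Beta-actin control probe sets had a 3′ over 5′ log2 ratio of 0.47 ± 0.03 in wild type and 0.36 ± 0.01 in the labelled knockout (SD, n = 3 each; exact permutation p = 0.1, the smallest that 3 against 3 arrays allow). For Gapdh this ratio was -0.15 ± 0.04 and -0.17 ± 0.04 (SD, n = 3 each; exact permutation p = 0.6). The mean log2 signal of the poly-A spike controls differed by -0.52, labelled knockout minus wild type, and that of the hybridization spike controls by 0.26 (exact permutation p = 0.1 each).

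As background, a fibrillar collagen is made as a procollagen of 3 chains wound into a triple helix. Type I procollagen normally joins alpha 1 chains with an alpha 2 chain, although alpha 1 chains can also form a trimer on their own. Type III procollagen is a trimer of identical chains. Types V and XI lie inside the larger fibrils, where they help to start fibril formation and limit fibril width, and their chains can mix with each other. Fibroblasts are the main source of types I, III and V, while type XI is best known from cartilage.

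The members fell into 3 patterns. Col1a2 and Col3a1 were among the brightest probe sets of the wild-type arrays and lay near or below the middle of the signal range in the knockout-labelled arrays. Col1a1 and Col11a1 were higher in the knockout-labelled arrays. The type V genes were lower by their main probe sets, from a log2 difference of -0.11 for Col5a1 to -1.48 for Col5a3, and Col5a1 was higher under scaling on the poly-A spike controls. In all 7 members the signals of the groups did not overlap, as in 64.7% of all genes tested, so this count says nothing particular about the members, and 59.7% of all genes passed the limma test in either direction. At least 2-fold differences were seen upwards in 2 members, against 7.0% of all genes, and downwards in 4, against 8.77% of all genes, and nothing is read from these shares because the members were chosen on this contrast. The median log2 difference was -1.02 over the 7 members and -0.03 over all genes. All log2 differences are of log2(signal + 16), knockout label minus wild type, a scale that understates the change of dim genes.

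**Figure D1:**
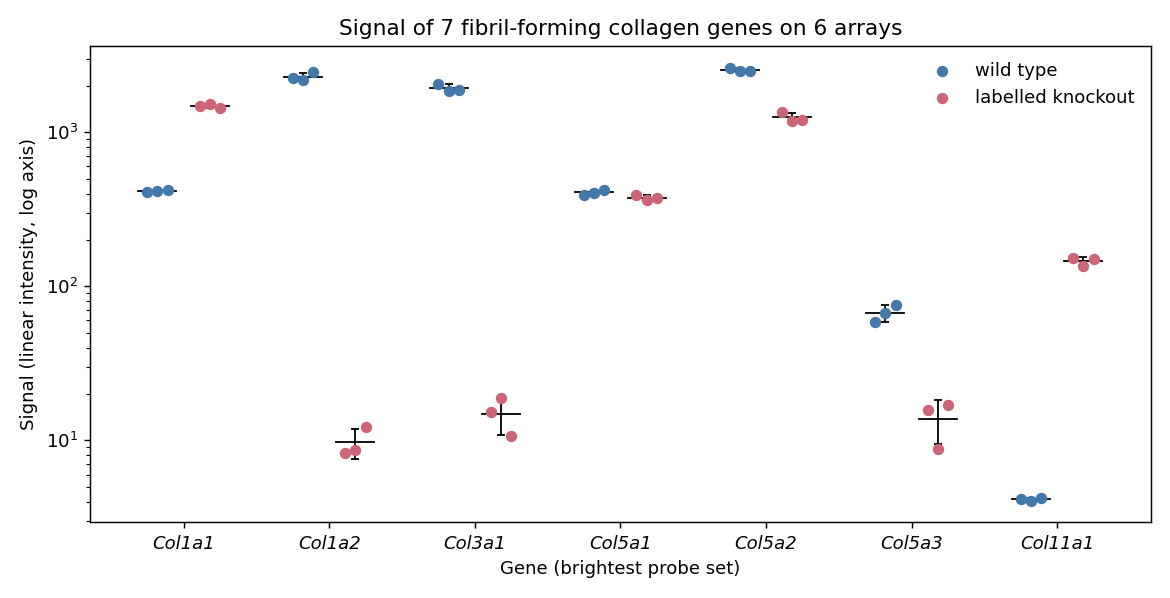
Signal (linear intensity on a log axis) of the main probe set of each of the 7 genes on each array, where each point is an array, each dash a mean and each bar an SD (n = 3 each). Col1a2 and Col3a1 are at 1851 or more in wild type and at 18.9 or less in the knockout-labelled arrays, Col1a1 and Col11a1 are higher in the knockout-labelled arrays, and the Col5a1 groups lie close together without overlapping.

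Col1a1 encodes the alpha 1 chain of type I collagen and lies on chromosome 11 (GRCm38.p6, 94936224 to 94953042). Its main probe set had signals of 406.6, 412.7 and 419.0 in wild type and 1479, 1520 and 1435 in the knockout-labelled arrays. Every knockout-labelled array was thus above every wild-type array, and the arrays of one group differed little (SD 6.20 and 42.3). This is a log2 difference of 1.80 ± 0.04 (SE) and a ratio of mean signals of 3.58. The other Col1a1 probe set gave 1.88 ± 0.06, from 300.9 ± 31.5 to 1148 ± 14.3 (SD, n = 3 each), so both probe sets placed the gene higher by nearly the same amount.

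Col1a2 encodes the alpha 2 chain of the same protein and lies on chromosome 6 (GRCm38.p6, 4505618 to 4541543). Its main probe set had signals of 2236, 2170 and 2444 in wild type and 8.31, 8.62 and 12.2 in the knockout-labelled arrays. The wild-type signals ranked between percentiles 98.7 and 98.9 of their arrays, whereas the signals in the knockout-labelled arrays ranked between percentiles 39.1 and 47.1. On the log2 scale the difference was -6.48 ± 0.07 (SE). With all 3 probe sets averaged the difference was -4.14. A second probe set went from 1080 ± 67.8 to 3.37 ± 0.474 (SD, n = 3 each), or by -5.82 ± 0.06 on the log2 scale. The third was dim throughout, at 4.36 ± 0.808 in wild type and 2.98 ± 0.0132 in the knockout-labelled arrays. Both bright probe sets of Col1a2 therefore gave signals of 12.2 or less in the knockout-labelled arrays. The log2 differences of the chains of type I collagen lay 8.28 apart, 1.80 for Col1a1 against -6.48 for Col1a2.

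Col3a1, which encodes the single chain of type III collagen, lies on chromosome 1 (GRCm38.p6, 45311538 to 45349706). Its main probe set had signals of 2058, 1851 and 1894 in wild type and 15.2, 18.9 and 10.7 in the knockout-labelled arrays. As for Col1a2, these are signals from the top of the range in wild type (percentiles 98.3 to 98.6) and from its middle in the knockout-labelled arrays (44.7 to 54.2). The log2 difference was -5.99 ± 0.08 (SE). The other probe set was dimmer, at 96.3 ± 7.15 against 3.87 ± 0.644 (SD, n = 3 each), which is -2.50 ± 0.08 on the log2 scale. It pointed the same way, with a smaller difference on a scale that compresses dim signals, and became the main one at -2.50 when probe sets with an x, s or a suffix were left out.

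Promoter sequence from RefSeq (GRCm38.p6) was matched for 5 of the 7 members, Col1a2, Col3a1, Col5a1, Col5a3 and Col11a1, with 250 bases before and 50 after the start used by the promoter table. That start is the first base of the gene for Col1a2 and Col3a1 and lies inside the gene for Col5a1, Col5a3 and Col11a1. The promoters of Col1a2 and Col3a1 are shown because these genes had the lowest differences of the members, and that of Col11a1 because it had the highest. Capitals mark matches on either strand to 3 motifs. The box bound by NF-Y was searched as CCAAT. The TATA box was searched as TATAAA. The GC box, bound by Sp1, was searched as GGGCGG. The strand of all 3 genes is +.
Col1a2, chr6:4505368-4505667: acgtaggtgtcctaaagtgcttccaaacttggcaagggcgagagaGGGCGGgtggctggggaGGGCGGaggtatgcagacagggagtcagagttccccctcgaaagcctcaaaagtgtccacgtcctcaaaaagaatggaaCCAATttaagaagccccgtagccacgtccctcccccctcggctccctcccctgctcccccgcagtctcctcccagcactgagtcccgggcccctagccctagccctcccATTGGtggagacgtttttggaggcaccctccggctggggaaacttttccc
Col3a1, chr1:45311288-45311587: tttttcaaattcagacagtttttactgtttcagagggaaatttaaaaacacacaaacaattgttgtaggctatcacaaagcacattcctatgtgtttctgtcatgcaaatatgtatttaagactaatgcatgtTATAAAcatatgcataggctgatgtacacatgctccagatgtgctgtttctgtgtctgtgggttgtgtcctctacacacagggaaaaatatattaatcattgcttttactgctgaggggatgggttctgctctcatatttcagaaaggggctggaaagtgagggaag
Col11a1, chr3:114030290-114030589: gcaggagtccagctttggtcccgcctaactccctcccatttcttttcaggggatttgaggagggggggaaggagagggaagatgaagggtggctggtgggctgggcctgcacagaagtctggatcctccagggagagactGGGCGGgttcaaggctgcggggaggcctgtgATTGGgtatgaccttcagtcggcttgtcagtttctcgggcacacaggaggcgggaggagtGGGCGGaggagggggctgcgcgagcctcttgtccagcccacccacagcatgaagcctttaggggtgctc

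Within the stretches searched, the promoters of Col1a2 and Col3a1 shared none of the 3 motifs. Other placements of the start were not tried, and where transcription starts in these cells was not measured. That of Col1a2 held 2 CCAAT matches, at bases -109 and 1 relative to the start used, and 2 GGGCGG matches, and 61% of its bases were G or C. That of Col3a1 held 1 TATAAA match, at base -117, and 37.7% G or C. Col11a1 resembled Col1a2 in this respect, with 1 CCAAT match, 2 GGGCGG matches and 62.3% G or C. Over the 32851 promoters of this length in the reference table, 37.4% held CCAAT, 13.6% TATAAA and 35.7% GGGCGG. These matches describe the letters only, and the difference in signal of each gene was measured on the array and not at its promoter.

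Col5a2, the alpha 2 chain of type V collagen, lies beside Col3a1 on chromosome 1 (GRCm38.p6, 45374331 to 45503282), with 24624 bases between them. Its main probe set had signals of 2629, 2489 and 2487 in wild type and 1348, 1184 and 1208 in the knockout-labelled arrays. The gene thus stayed among the bright probe sets in both groups, at percentile 96.9 or above on every array, while its neighbour did not. The log2 difference was -1.02 ± 0.05 (SE), against -5.99 for Col3a1. The other Col5a2 probe set went from 289.2 ± 23.3 to 218.0 ± 15.7 (SD, n = 3 each), or by -0.38 ± 0.07 on the log2 scale. Under poly-A spike scaling the main probe set of Col5a2 was at -0.50.

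Col5a1, the alpha 1 chain found in most type V collagen, had the smallest difference. Its main probe set had signals of 394.2, 406.3 and 422.0 in wild type and 389.0, 363.9 and 375.1 in the knockout-labelled arrays, so the highest knockout-labelled array was just below the lowest wild-type array. The log2 difference was -0.11 ± 0.04 (SE). Both other probe sets pointed the opposite way: one went from 183.8 ± 9.06 to 345.8 ± 23.6 (log2 difference 0.86 ± 0.06) and the other from 48.9 ± 2.99 to 76.7 ± 2.49 (SD, n = 3 each; 0.51 ± 0.07). The direction of Col5a1 therefore depends on the probe set, with 0.42 for the mean of its probe sets, and on the scaling, with 0.39 under poly-A spike scaling.

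Col5a3 encodes the alpha 3 chain of type V collagen, which has a narrower distribution in tissues. Its main probe set had signals of 58.6, 67.2 and 75.4 in wild type and 15.7, 8.81 and 16.9 in the knockout-labelled arrays. The groups did not overlap, and the SD of 8.41 and 4.36 came to 12.5% and 31.6% of the group means. The log2 difference was -1.48 ± 0.11 (SE). The other probe set was dim in both groups, at 4.54 ± 0.639 and 4.74 ± 0.472 (SD, n = 3 each), and its signals overlapped. With both averaged Col5a3 was at -0.74.

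Col11a1, the alpha 1 chain of type XI collagen, was near the bottom of the range in wild type, at 4.17, 4.07 and 4.23, and reached 152.6, 136.1 and 151.4 in the knockout-labelled arrays. On the wild-type arrays it lay between percentiles 21.7 and 22.8, and on the knockout-labelled arrays between 78.6 and 80.3. The log2 difference was 3.01 ± 0.07 (SE). The other Col11a1 probe set went from 3.59 ± 0.172 to 40.1 ± 18.1 (SD, n = 3 each; log2 difference 1.47 ± 0.16), and its knockout-labelled arrays, at 24.6, 60.0 and 35.6, varied widely but were all above wild type. Because Col11a1 was dim in wild type, its log2 difference moved with the offset, from 1.63 with an offset of 64 to 4.84 with an offset of 1.

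**Figure D2:**
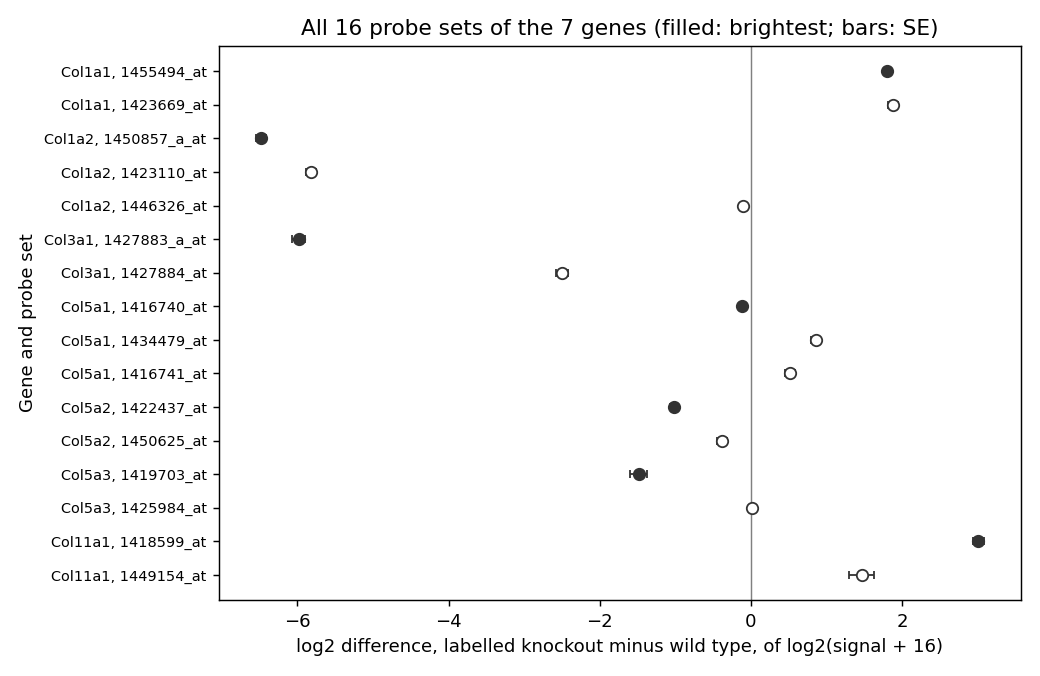
Log2 difference (horizontal axis, labelled knockout minus wild type, of log2(signal + 16)) of all 16 probe sets of the 7 genes, filled for the main probe set of a gene and open for the others, with bars for SE. The probe sets of Col1a1 lie at 1.80 and 1.88 and both bright probe sets of Col1a2 at -6.48 and -5.82, whereas those of Col5a1 lie on both sides of 0.

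Of the 9 probe sets that were not the main one of their gene, 6 had the same direction as it and 3 the opposite one, namely a pair of Col5a1 and the dim one of Col5a3. Among the 18193 genes ordered from the lowest log2 difference, Col1a2 was number 2 and Col3a1 number 4, Col5a3 was number 792 and Col5a2 number 1552. From the highest, Col11a1 was number 187 and Col1a1 number 546. Col5a1 was number 6296 from the lowest. The members therefore ranged from near one end of all genes to well towards the other.

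For all members but Col5a1, the shift of the whole chromosome was small beside the gene's own difference. The median log2 difference of bright genes (mean log2 signal above 7) relative to all bright genes is given for the members' chromosomes only. It was 0.22 on the chromosome of Col1a1 and -0.21 on that of Col1a2, and between -0.08 and 0.12 on those of the other members. With each chromosome centred, an alternative added after the data were seen, Col1a1 was at 1.58, Col1a2 at -6.28 and Col5a2 at -0.94, and Col5a1 moved from -0.11 to -0.23. Some genes on chromosomes without a member moved further. Tmem38b went from -1.65 to -0.999, Mmp14 from 2.59 to 2.05 and Ogn from 4.02 to 3.60. Col6a2 moved away from zero, from -2.92 to -3.23. The genes that adjoin the members were mostly not measured here. Sgca, next to Col1a1, was dim in both groups, at 9.28 ± 1.19 and 9.70 ± 2.72 (SD, n = 3 each; limma adjusted p = 0.821).

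**Figure D3:**
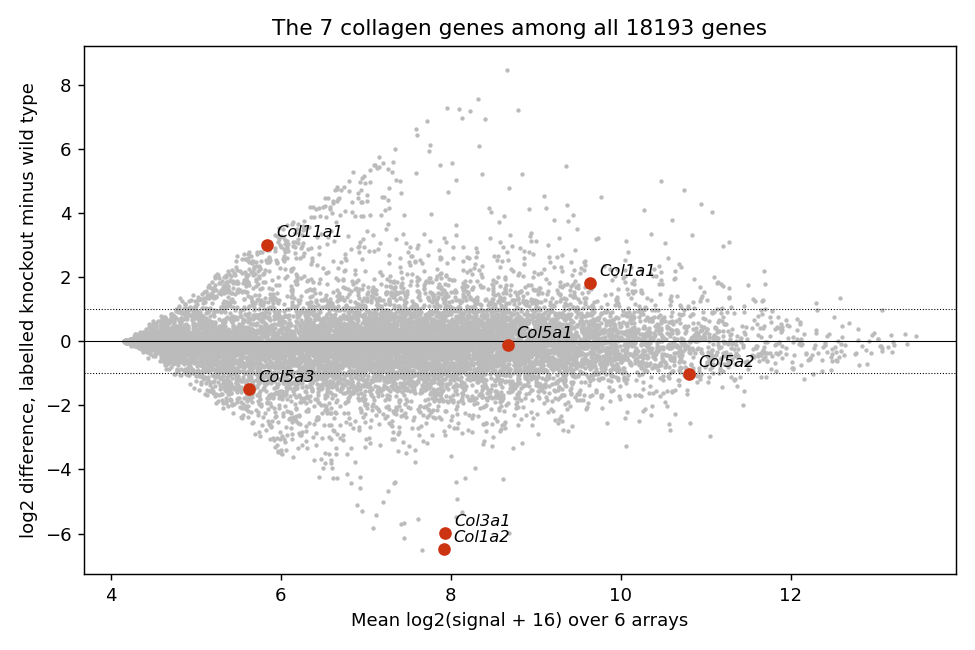
Log2 difference (vertical axis, labelled knockout minus wild type) against mean log2(signal + 16) over the 6 arrays (horizontal axis) for all 18193 genes in grey and the 7 collagen genes in red, with dotted lines at 1 and -1. Col1a2 and Col3a1 lie at the lower edge, at -6.48 and -5.99, Col5a1 near 0, and Col11a1 at 3.01.

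For each member the genes with the nearest profiles were found by the Euclidean distance between centred log2 signals over the 6 arrays, a measure governed by the group difference. The members themselves were left out of this search, so their distances from each other are not given. For Col1a2 they were the prostaglandin reductase gene Ptgr1 (distance 0.176, log2 difference -6.52), the metallothionein gene Mt1 (0.453) and the galectin gene Lgals3 (0.639). Those of Col3a1 were the cathepsin gene Ctsz (0.398), Lgals3 (0.400) and Mt1 (0.421), so Lgals3 and Mt1 were near both. Col1a1 was nearest to Pard3b (0.0640), the adenylate kinase gene Ak1 (0.0655) and Gxylt2 (0.0678). Col11a1 was nearest to Notum (0.0900), an inhibitor of Wnt proteins, Thbs2 (0.128), a thrombospondin of the matrix, and Klhl22 (0.137). Among the type V genes, Col5a1 was nearest to the purine synthesis gene Paics (0.0363), Gpatch8 (0.0394) and Dennd3 (0.0406). Col5a2 was nearest to Cdc26 (0.0541), the replication clamp gene Pcna (0.0677) and Bend6 (0.0704), and Col5a3 to Reep1 (0.159), Ckap2l (0.229) and Dock6 (0.234).

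Tested beside the members were other collagen genes, genes that process, bind and break down collagen, and regulators of collagen genes. These formed 10 lists that were drawn up with earlier results of these arrays known. Of 150 such genes, 142 were measured, and Adamts2, Adamts14, Col6a6, Col28a1, Fkbp10, Itga11, Loxl2 and Runx2 were not. Of the 142, 58 rose and 40 fell (limma, Benjamini-Hochberg adjusted p below 0.05, all genes tested together), or 40.9% and 28.2%, against 24.2% and 35.5% of all genes tested. The counts depended on the scaling, with 100 higher and 16 lower under poly-A spike scaling and 50 higher and 60 lower under hybridization spike scaling. Those scalings moved the median log2 difference of all genes by 0.15 and -0.09. Single genes could move further, as did Col1a1, which went from 1.80 to 2.31 and 1.54. Of all genes called, 40.6% were higher in the main scaling, 78.8% with poly-A spikes, 22.1% with hybridization spikes and 29.4% after median centring.

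**Figure D4:**
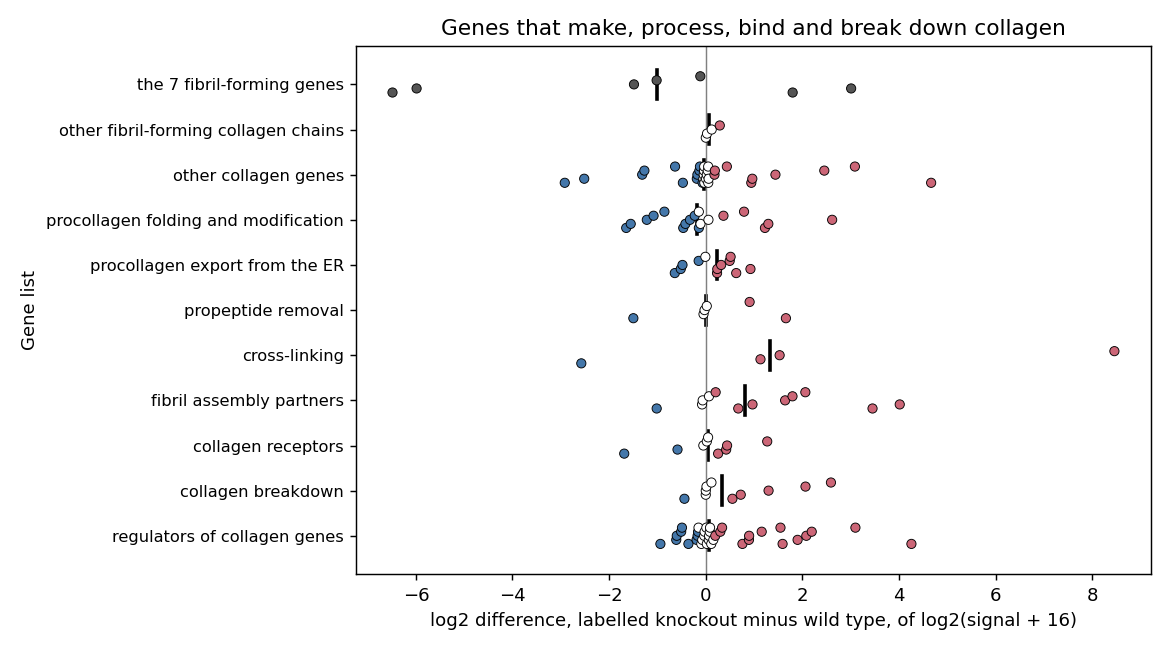
Log2 difference (horizontal axis, labelled knockout minus wild type) of each measured gene of 10 collagen-related lists, with red for genes higher and blue for genes lower at an adjusted p under 0.05, white for the others, grey for the 7 members (not tested) and a bar at each list median. Medians run from -1.02 for the members to 1.33 for the cross-linking genes, and those of the folding, export, receptor, propeptide, regulator and both other collagen lists changed sign under 1 or more scalings.

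Of the other fibril-forming chains, Col27a1 had signals of 36.4 ± 2.59 in wild type and 41.3 ± 6.41 in the labelled knockout (SD, n = 3 each; limma adjusted p = 0.269), and the other three were dim. Col2a1, the chain of type II collagen of cartilage, had signals of 6.30 ± 0.265 in wild type and 6.80 ± 2.23 in the knockout-labelled arrays (SD, n = 3 each; limma adjusted p = 0.69). Col11a2, which can join Col11a1 in type XI collagen, rose from 8.55 ± 0.939 to 14.1 ± 2.71, a log2 difference of 0.29 ± 0.06 (SE; limma adjusted p = 0.00101). Col24a1 did not pass the test. Of 31 other collagen genes, 9 rose and 11 fell: the fibril-associated chain gene Col12a1 rose by 4.67 and Col4a6, of basement membranes, by 3.09, while Col6a2 and Col6a1, of the beaded microfibrils of type VI, fell by 2.92 and 2.52. Col12a1 was at 1.89 with its probe sets averaged. The transmembrane collagen gene Col23a1 rose by 2.46. Of these genes, 11 did not pass the test.

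Genes that fold and modify procollagen in the endoplasmic reticulum moved in both directions. Of 18 measured, 5 rose and 10 fell, and the median of -0.18 turned to 0.16 under poly-A spike scaling. P3h4, which encodes a partner of lysyl hydroxylase in the endoplasmic reticulum, rose from 78.5 ± 4.88 to 564.3 ± 27.5 (SD, n = 3 each; log2 difference 2.62, limma adjusted p = 1.24e-12). Crtap, a subunit of the complex that hydroxylates the 3-position of prolines, rose by 1.23 and the prolyl 3-hydroxylase gene P3h2 by 1.30. The lysyl hydroxylase gene Plod1 fell by 1.55 and was at -0.88 with its probe sets averaged, and Tmem38b, a cation channel of the endoplasmic reticulum, fell by 1.65 and was at -1.05 with its probe sets averaged. Serpinh1, which encodes the collagen chaperone HSP47, had signals of 1648 ± 43.3 and 1715 ± 60.4 by its main probe set (SD, n = 3 each; limma adjusted p = 0.254), while its other probe set went from 1428 to 1187 (log2 difference -0.26, limma adjusted p = 0.000328).

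The export machinery showed smaller differences. Of 12 genes, 7 rose and 4 fell, none by as much as 2-fold, and the median of 0.24 turned to -0.01 under hybridization spike scaling. The coat protein gene Sec31a rose by 0.93 and Creb3l1, a transcription factor of secretory cells, by 0.63. The coat protein gene Sec23a fell by 0.64 and the ubiquitin ligase adaptor gene Klhl12 by 0.52, and both lost their call under poly-A spike scaling, at -0.15 and -0.03. Sar1a, a GTPase that starts coat assembly, was at 0.52 by its main probe set, but another probe set went from 611.0 to 364.7 (log2 difference -0.72, limma adjusted p = 7.75e-08).

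Of 8 genes listed for removal of the propeptides, 6 were measured, without Adamts2 and Adamts14, and of these 2 rose and 1 fell. Bmp1, the protease that cuts the C-propeptide, rose from 208.1 ± 8.18 to 692.4 ± 21.5 (SD, n = 3 each; log2 difference 1.66, limma adjusted p = 9.24e-12; 1.09 with probe sets averaged). Its enhancer gene Pcolce rose by 0.91, whereas the related Pcolce2 fell from 209.7 ± 6.78 to a signal between 61.9 and 67.9. Of 4 cross-linking enzymes of the lysyl oxidase family, Lox, Loxl3 and Loxl1 rose, by 8.46, 1.53 and 1.13, and Loxl4 fell by 2.58. Lox went from 5.67 ± 1.60 to 7617 ± 362, opposite to Col1a2 and Col3a1, and was at 5.52 with its probe sets averaged.

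Of 12 genes for proteins that take part in fibril assembly, 8 rose and 1 fell, with a median of 0.82. The leucine-rich proteoglycan genes Ogn, Prelp and Dcn rose by 4.02, 2.06 and 1.80, Postn, a matricellular protein, by 3.45, and Fn1, fibronectin, by 1.64. Prelp was at 0.45 when suffixed probe sets were left out, and Dcn at 0.90 with its probe sets averaged.

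Collagen receptors were mixed. Of 9 measured, 4 rose and 2 fell, and the median of 0.05 changed sign under hybridization spike scaling and with arrays centred on the median. Ddr2, a receptor tyrosine kinase for fibrillar collagen, fell from 649.2 ± 57.0 to 190.1 ± 1.94 (SD, n = 3 each; log2 difference -1.69, limma adjusted p = 7.01e-11), while the related Ddr1 rose by 0.44, or 0.14 with its probe sets averaged. Mrc2, which takes up collagen for breakdown, rose by 1.27 and the integrin subunit gene Itga10 by 0.42, and the adhesion receptor gene Adgrg1 fell by 0.58. Of 10 genes for collagen breakdown, 5 rose and 1 fell. The membrane collagenase gene Mmp14 rose from 173.1 ± 4.10 to 1126 ± 65.6 (log2 difference 2.59, limma adjusted p = 3.61e-13; 2.05 with each chromosome centred). Mmp13 and Mmp8, also collagenases, rose by 2.07 and 1.30 from dim signals in wild type. The gelatinase gene Mmp2 rose by 0.73 and Pepd, which cleaves proline dipeptides, by 0.55.

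Among 36 regulators of collagen genes, 14 rose, 9 fell and the median of 0.08 turned to -0.09 under hybridization spike scaling. The mesenchymal homeobox gene Prrx1 rose by 4.26, the zinc-finger gene Zeb1 by 3.10, Egr1 by 2.20, the TGF-beta effector gene Smad3 by 2.08 and Cebpb by 1.90. Zeb1 was at 1.24 and Smad3 at 1.14 with probe sets averaged.

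The cell type label was set against marker genes. Of 12 fibroblast markers, 8 rose and none fell, against 24.2% and 35.5% of all genes tested. Under hybridization spike scaling 6 rose and 2 fell, and with arrays centred on the median 8 rose and 1 fell. Under poly-A spike scaling all 12 rose. The summed signal of these markers ran from 11569 to 12552 in wild type and from 23452 to 24038 in the knockout-labelled arrays. Vim, vimentin, was at 5288 ± 422 and 7306 ± 55.7 (SD, n = 3 each), but Thy1 was at 8.22 and 7.59 and Fap at 3.43 and 3.46, and Pdgfra was at 9.99 ± 0.999 in wild type and 1789 ± 56.7 in the knockout-labelled arrays. Of 8 chondrocyte markers, 1 rose and 1 fell, and their summed signal ran from 84.3 to 88.8 and from 155.7 to 183.9. Under poly-A spike scaling 5 of them rose and 1 fell, and under hybridization spike scaling 1 rose and 5 fell. Sox9, the cartilage transcription factor that acts on Col11a1, rose from 31.6 ± 1.39 to 128.1 ± 16.4 (limma adjusted p = 7.41e-09), while Matn3, a cartilage matrix protein, fell from 17.1 ± 3.11 to 7.36 ± 0.801 (limma adjusted p = 1.27e-05). Acan, Matn1 and Hapln1 did not exceed a mean of 9.84 in either group.

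Markers of other cell types moved as well, beside 24.2% of all genes tested that rose and 35.5% that fell. Of 6 smooth muscle markers, 2 rose and 1 fell, with a summed signal of 225.1 to 232.1 in wild type and 1619 to 1702 in the knockout-labelled arrays. Acta2 rose from 86.7 to 1516 and Smtn from 31.3 to 75.4, Des fell from 78.1 to 40.7, and Myh11 (13.2 and 12.3), Tagln (14.1 and 14.6) and Cnn1 (5.56 and 5.33) did not pass the test. Of 6 leukocyte markers, 2 rose and none fell (summed signal 71.4 to 75.1 and 146.9 to 159.3). Lyz2 rose from 9.11 to 72.4 and Cd68 from 19.3 to 41.0, while Csf1r, Tyrobp, Itgam and Ptprc (2.59 and 2.64) did not pass the test. Of 6 epithelial markers, 4 fell and none rose (80.9 to 97.8 and 42.0 to 49.6). Of 7 osteoblast markers listed, Runx2, Bglap and Spp1 were not measured. None of the 4 others passed the limma test in the main scaling (41.6 to 43.3 and 39.7 to 47.4). Nor did any of the 6 endothelial markers (38.4 to 46.2 and 34.9 to 41.9). The counts of these lists depended on the scaling. Under poly-A spike scaling, 5 smooth muscle, 5 leukocyte, 4 osteoblast, 2 endothelial and 1 epithelial marker rose. In that scaling 1 smooth muscle and 1 epithelial marker fell. Under hybridization spike scaling, 2 smooth muscle and 2 leukocyte markers rose. There, 3 smooth muscle, 2 leukocyte, 5 epithelial, 2 osteoblast and 4 endothelial markers fell. No marker was listed at 0. The part of these cell types in the collagen differences was not tested, and in bulk RNA fewer cells of a type and less RNA per cell cannot be told apart.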

How the data were processed

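Deposited intensities of 6 arrays, linear and per probe set, were analysed. The submitters' processing notes name MAS5, without version or target scaling. Of 45101 probe sets, 64 were controls, and 34945 carried 1 gene symbol in the platform annotation, 34741 of them matched by Entrez number to RefSeq (GRCm38.p6). After log2(signal + 16), the probe set with the highest mean stood for its gene (18193 genes).

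Differences were fitted with limma 3.58.1 in R 4.3.3 (lmFit, eBayes with trend; two-sided, adjusted by Benjamini-Hochberg across every gene, threshold 0.05). The members and all lists were chosen with earlier results of these data known. Named were the members, Abl1 and Abl2, the other fibril-forming chains, adjacent genes, per list up to 5 genes with the largest differences past the threshold and without overlap, and the 3 nearest profiles per member. Serpinh1, Ybx1 and single cell type markers were named after their values were seen. The fit was checked on simulated data with independent noise for each gene and array, which held no shifts of scaling or of chromosomes. Alternatives were other offsets, scalings (median, quantile, poly-A and hybridization spike controls), probe set choices, a filter on dim genes, variance models, a replicate block and leaving out each array. Figures were drawn with matplotlib 3.10.9.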

Additional observations from a re-analysis of the deposited data

How the results depend on the processing

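Over 18 alternatives the members' log2 differences kept their direction except that of Col5a1, which was 0.39 under poly-A spike scaling and 0.42 with probe sets averaged. The count of 4 members at least 2-fold lower was 2 with an offset of 64, 2 with probe sets averaged, 3 under poly-A spike scaling, 3 with chromosomes centred and 3 to 4 with 1 array left out, and the count of 2 higher was the same in each. Genes higher numbered 10435 and genes lower 2809 under poly-A spike scaling (4411 and 6455 in the report's fit), genes lower 10722 under hybridization spike scaling and 9738 with arrays centred on the median. Of the collagen-related genes, 100 rose and 16 fell under poly-A spike scaling. With 1 array left out, 4176 to 4327 genes were higher and 5973 to 6258 lower, and 57 to 59 and 36 to 39 of the collagen-related ones. The replicate numbers were not taken to pair the arrays, since deviations from the group means correlated at 0.04, 0.11 and 0.16 for the 3 numbers, although all 6 arrays correlated best with the array of their own number, a hint from the data and not the design. With the replicate block 59 of the collagen-related genes rose and 38 fell, Col1a2 stayed at -6.48, and no call of a named gene changed. Sar1a was at -0.10 with probe sets averaged. Abl1 turned to 0.36 under poly-A spike scaling and 0.13 with probe sets averaged, and passed as lower under hybridization spike scaling (-0.35), with arrays centred on the median (-0.16) and with chromosomes centred (-0.23), a setting added after seeing the data. Abl2 turned to 0.0146 under quantile scaling, 0.0691 with chromosomes centred and 0.48 under poly-A spike scaling, passed as lower under hybridization spike scaling (-0.26), and ran from -0.0438 to 0.0191 with 1 array left out. An offset of 64 moved Col4a6, Col23a1, Creb3l1, Loxl4, Postn, Prelp, Adgrg1, Itga10, Mmp13, Mmp8, Col11a2 and Col5a3 by over 1.5 times, and Col5a3 ran from -2.24 with an offset of 1 to -0.74 with probe sets averaged. Under poly-A and hybridization spike scaling Mmp2 was at 1.23 and 0.47 and Pepd at 1.05 and 0.30, and under the first Pcolce was at 1.42 and Sec31a at 1.42. The causes of these shifts were not tested. Detection calls were not used, so dim values are not known to lie above background.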
